A study of Mus musculus with 6 samples.

Results

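The genes described here include those for enzymes of mouse ovary that make and use glutathione, thioredoxin and their partners to remove superoxide and peroxides. The choice rests on symbols alone, so not every member has that function. Txnip, for example, binds and restrains thioredoxin. Members were chosen by symbol: the glutathione S-transferases (GSTs), glutathione peroxidases, peroxiredoxins, every symbol starting with Txn, and 14 single genes such as Sod1, Cat and Hmox1. Of 35415 genes in the count table, 69 symbols matched, and 60 were kept because they had at least 10 counts in at least 3 of the 6 libraries. All 60 were among the 16841 genes tested. The symbols not kept were Gpx2, Gpx5, Gpx6, Gsta1, Gstm3, Gstp3, Gstt4, Prdx6b and Txndc8, of which Gpx5, Prdx6b and Txndc8 had no count in any library. Nearest to the limit, Gpx6 reached 10 counts in 2 libraries and was left out, and Gsto2 had 17 to 42 counts in each library and was kept.

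The study measured RNA by bulk sequencing in whole ovaries at estrus, from animals 3 months old. There were 3 wild-type and 3 Rnf111+/- (heterozygous) libraries, and the labels name each after its own mouse. The Rnf111+/- mice carry 1 edited copy of Rnf111, made with CRISPR-Cas9, and model loss of 1 copy of RNF111 in premature ovarian insufficiency. Rnf111 encodes Arkadia, a ubiquitin ligase of transforming growth factor beta signalling. The sources used here give neither the edited position, nor the strain, nor which of the edited lines was sequenced.

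Superoxide, a by-product of respiration and of steroid synthesis, is turned into hydrogen peroxide by superoxide dismutases. Peroxide is then removed by catalase, by glutathione peroxidases at the cost of glutathione, or by peroxiredoxins, which thioredoxin recharges. Glutathione is built by glutamate-cysteine ligase and glutathione synthetase, and glutathione reductase and thioredoxin reductases return both carriers to their reduced form. GSTs couple glutathione to electrophiles. Ovarian follicles and corpora lutea use these systems because steroid-making mitochondria leak electrons.

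The libraries held 38261449 to 39474515 counts. Levels are counts per 1000000 (CPM), scaled by the trimmed mean of M values, and a floor of 3 counts corresponded to 0.0747 to 0.0784 CPM. Rnf111 itself was at 53.8, 53.5 and 54.4 CPM in wild-type libraries and at 44.2, 44.9 and 44.7 CPM in heterozygous libraries (log2 fold change -0.27 ± 0.07, adjusted p = 0.04). This call did not hold in 5 of the 6 leave-one-out fits, each of which dropped a different library, and under upper-quartile scaling, no low-count filter or the replicate block, a fit with the replicate number as a term. Log2 fold changes throughout are heterozygous over wild type with their standard error, and a gene is said to have risen or fallen where edgeR's quasi-likelihood test gave an adjusted p under 0.05 over all tested genes. Markers that define the ovary were present, with granulosa genes such as Amh and Fshr summing to 3468 CPM or more and oocyte genes such as Gdf9 and Zp3 to 175 CPM or more in each library. Wild-type replicate 3 lay apart: across genes, the correlation of its log2 CPM with wild-type replicates 1 and 2 was 0.974 and 0.975, while those correlated at 0.989 with each other. Its 5 oviduct epithelium markers summed to 192 CPM, against 8.43 and 15.7 CPM in the other wild-type libraries and 20.8 to 23.8 CPM in heterozygous libraries. Several results that rest on it are given with and without it. Other values below are with all libraries only, and some of those shift without it too. Examples are the log2 fold changes of Gstp1 (-0.33 with it and -0.17 without) and Sod2 (-0.19 with it and -0.28 without).

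Many antioxidant genes are controlled by NRF2, the product of Nfe2l2, which binds antioxidant response elements. RefSeq promoter windows (GRCm38.p6, 250 bases before to 50 after a gene's start) were found for 51 of the 60 members, and none for Gclc, Gsr, Gsta4, Gstt2, Hmox1, Prdx6, Sod3, Txnl1 and Txnl4a. They were searched on both strands for TGACNNNGC, the core of the element, which read backwards is GCNNNGTCA. The core was in the windows of 12 of the 51 members (23.5%), against 14.0% of all 27025 genes with a window. The windows below are those of Sod1 and Gstm7, which fell, and of Prdx1, Txnrd1 and Gclm, classical NRF2 targets that did not pass. Capitals mark the core, and each line reads toward the gene.
Sod1: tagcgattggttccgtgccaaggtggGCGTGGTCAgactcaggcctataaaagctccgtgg
Gstm7: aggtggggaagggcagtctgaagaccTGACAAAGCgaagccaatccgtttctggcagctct
Prdx1: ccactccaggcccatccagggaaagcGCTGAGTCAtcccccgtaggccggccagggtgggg
Txnrd1: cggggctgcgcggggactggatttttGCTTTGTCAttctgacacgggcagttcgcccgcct
Gclm: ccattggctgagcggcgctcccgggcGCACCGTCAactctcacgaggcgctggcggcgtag

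The Sod1 stretch is chr16:90220680-90220740 on the + strand, with the core starting 56 bases before the gene's start. The other stretches are those of Gstm7 (chr3:107931709-107931769, - strand), Prdx1 (chr4:116685440-116685500, + strand), Txnrd1 (chr10:82859088-82859148, + strand) and Gclm (chr3:122245397-122245457, + strand). Their cores start 129, 133, 92 and 134 bases before the start of the gene, in that order. The core was in the windows of 3 of 10 members that fell (Sod1, Gstm7 and Txndc2), of 0 of 1 that rose (Gsta2) and of 9 of 40 that did not pass. The windows shown were picked among those with the core, and that of Nqo1, another NRF2 target that did not pass, had none. A match is a run of letters and not a measured binding site, and sequence outside these short windows was not searched.

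Between the genotypes, 12 members fell, 3 rose and 45 did not pass. The share called was 25.0% of members, against 9.64% of all tested genes, and by direction 5.74% of all genes fell and 3.9% rose. The falls were those of Prdx2, Prdx3, Prdx5, Sod1, Gpx1, Gpx4, Gsr, Gss, Gstt1, Gstm7, Hmox1 and Txndc2, and the rises were those of Gclc, Gsta2 and Gsta4. They were modest in size, from -0.76 (Hmox1) to -0.28 (Gpx4) among the falls and from 0.49 (Gclc) to 1.30 (Gsta2) among the rises. Of the 60 members, 45 had a log2 fold change below 0, with a median of -0.19, against 51.3% of all tested genes and a median of -0.01. The groups did not overlap for 26 members, a pattern that 32.0% of all tested genes showed. The heterozygous libraries were the lower ones for 22 of the 26 (16.9% of all tested genes) and the higher ones for 4 (15.1%). The 60 members together took 8387, 8553 and 8396 CPM in wild-type libraries and 8139, 7612 and 8522 CPM in heterozygous libraries. Those sums overlapped between the genotypes.

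**Figure D1:**
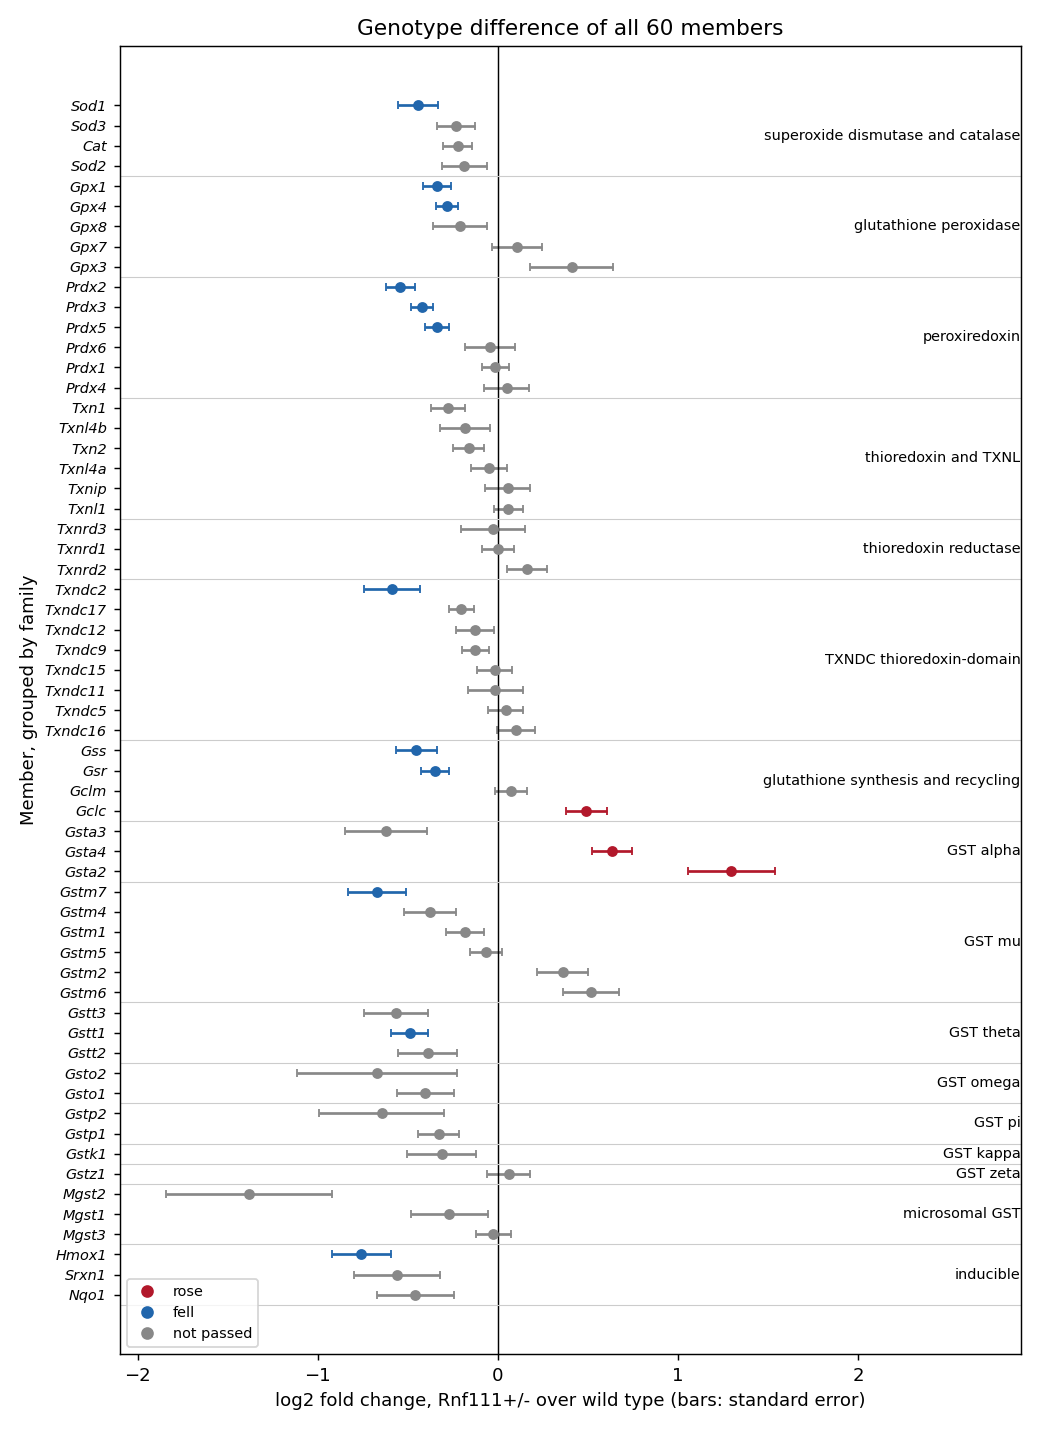
Log2 fold change of each of the 60 members (heterozygous over wild type, x axis, bars are standard errors), grouped by family, with genes that rose in red, fell in blue and did not pass in grey. The 12 falls spread over 8 families, while the 3 rises are Gclc and the alpha-class transferases Gsta2 and Gsta4.

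The calls were not equally firm. With each library left out in turn, the falls of Prdx2 and Prdx3 held in all 6 fits and the rise of Gsta4 in 4, while Txndc2 passed in none. The number of members called was 3 to 5 when any library but wild-type replicate 3 was dropped. Calls over all genes dropped too, to 530 to 865 of 17249 to 17315 tested, against 1623 of 16841 with all libraries. Without wild-type replicate 3, 17 members were called, of which 4 rose and 13 fell. In that fit 16.2% of all tested genes were called, 7.37% as risen and 8.82% as fallen.

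In bulk tissue, fewer cells of a type and less RNA per cell cannot be told apart, and several marker sums differed between the genotypes. Summed over 7 theca and steroidogenic interstitium markers, levels were 13660 to 14778 CPM in wild-type and 9980 to 12907 CPM in heterozygous libraries, with 1 marker risen (Cyp17a1) and 3 fallen (Star, Hsd3b1 and Srd5a1). The 10 granulosa markers summed to 3468 to 7406 against 8103 to 10788 CPM (1 rose), and the 7 corpus luteum markers to 2021 to 3371 against 5769 to 8651 CPM (1 fell). Within the corpus luteum list, 4 markers had log2 fold changes below 0 and 3 above, with a median of -0.05, so its higher sum was not shared by most of its markers. The theca list also had 4 below 0 and 3 above. The 8 oocyte markers summed to 175 to 191 against 237 to 327 CPM (5 rose). Endothelial markers (6) summed to 307 to 370 against 227 to 267 CPM (3 fell). Smooth muscle markers (5) summed to 1037 to 1342 against 637 to 857 CPM (2 fell), and surface epithelium markers (6) to 452 to 501 against 345 to 382 CPM (3 fell). Macrophage markers (8) overlapped, at 348 to 580 against 384 to 493 CPM (none called). Calls in several lists changed without wild-type replicate 3. Of the 8 macrophage markers 4 rose (Cd68, C1qa, C1qb and C1qc), and of the corpus luteum markers 3 rose and 1 fell. Granulosa markers had 3 rises (Fshr, Inhba and Gja1), while Cyp19a1, the 1 that rose with all libraries, did not pass. Of the endothelial markers 2 instead of 3 fell (Cdh5 and Kdr), and 1 oviduct epithelium marker (Tppp3) and 1 adipocyte marker (Plin1) rose. The 7 erythrocyte markers, at 37.5 to 75.9 against 47.0 to 172 CPM, and the 5 adipocyte markers, at 13.9 to 60.6 against 25.5 to 44.0 CPM, overlapped too, and no marker of any list was at 0 in all libraries. The part of these cell types in the results below was not tested.

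Scaled by exon length, the most abundant member was Gpx3, the secreted plasma glutathione peroxidase, at 504 CPM per kilobase in wild-type and 669 in heterozygous ovaries. Txnip, which binds and restrains thioredoxin, followed at 338 and 350 CPM per kilobase, and the mu-class transferase Gstm1 at 310 and 273. These 3 led in both genotypes. Prdx1 and Gpx1 came next in wild-type ovaries, at 204 and 197 CPM per kilobase. In heterozygous ovaries Gstm2, at 204 CPM per kilobase against 159 in wild type, was level with Prdx1, at 202. The lowest member in both genotypes was Gsto2, at 0.330 and 0.206 CPM per kilobase. Exon lengths come from GENCODE M21, so neighbours in this order that differ little should not be ranked.

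**Figure D2:**
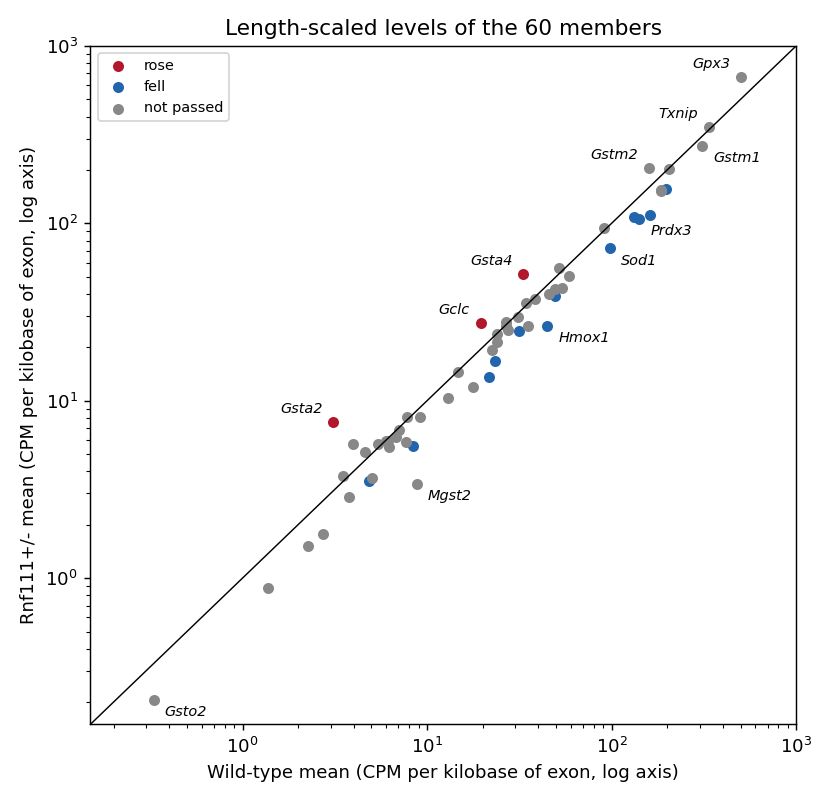
Mean level of each of the 60 members in wild-type (x axis) and heterozygous (y axis) ovaries, in CPM per kilobase of annotated exon on log axes, with the line of equal levels. Members span from 0.330 (Gsto2) to 504 (Gpx3) in wild type, and most points lie just below the line.

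Superoxide dismutases and catalase stand first in the pathway. Sod1, the copper-zinc enzyme of the cytosol, was at 416, 434 and 321 CPM in wild-type libraries and at 301, 278 and 281 CPM in heterozygous libraries. The groups did not overlap, but wild-type replicate 3 lay nearer to the heterozygous libraries than to the other wild-type ones. Sod1 fell by 0.45 ± 0.11 on the log2 scale (adjusted p = 0.0415), and without wild-type replicate 3 the difference was -0.56 ± 0.07 (adjusted p = 0.000216). The call did not hold with limma-voom (adjusted p = 0.0515), with upper-quartile scaling (adjusted p = 0.0519) or in the other 5 leave-one-out fits (adjusted p up to 0.165). Sod2, the manganese enzyme of mitochondria, was at 88.4, 109 and 78.4 against 87.9, 80.3 and 74.0 CPM. Its groups overlapped (-0.19 ± 0.12, adjusted p = 0.395), and 21.0% of its 50-base words occur in other genes. Sod3, the extracellular enzyme, was at 84.6 ± 2.85 against 72.0 ± 10.7 CPM (mean ± SD, n = 3 each), and 1 heterozygous library reached the wild-type range (-0.23 ± 0.10, adjusted p = 0.206). Catalase (Cat), which splits peroxide in peroxisomes, was at 146, 146 and 172 against 128, 133 and 135 CPM, without overlap (-0.22 ± 0.08, adjusted p = 0.125). Of these 4 genes 1 fell, and all 4 had log2 fold changes below 0. Among all tested genes 5.74% fell, and 51.3% were below 0.

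By their calls with all libraries, peroxiredoxins divided into 2 sets. Prdx2, Prdx3 and Prdx5 fell, while Prdx1, Prdx4 and Prdx6 had log2 fold changes between -0.04 and 0.05. Prdx3, the peroxiredoxin of the mitochondrial matrix, was at 207, 211 and 209 CPM in wild-type libraries and at 156, 153 and 159 CPM in heterozygous libraries. The spread within each genotype was a few CPM and the gap between them was far wider. Prdx3 fell to 74.7% of the wild-type level (-0.42 ± 0.06, adjusted p = 0.00482). Prdx2, an abundant cytosolic enzyme also known from red blood cells, was at 495, 534 and 457 against 356, 324 and 341 CPM. Its groups did not overlap, and it fell to 68.7% (-0.54 ± 0.08, adjusted p = 0.00554). Prdx5, found in mitochondria, peroxisomes and cytosol, was at 110, 104 and 104 against 86.8, 78.9 and 84.7 CPM and fell to 79.0% (-0.34 ± 0.07, adjusted p = 0.0189). The call did not hold in 4 of the 6 leave-one-out fits (adjusted p up to 0.0981).

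Prdx1, the most abundant peroxiredoxin per length, was at 616, 607 and 644 against 608, 577 and 661 CPM, so the groups overlapped fully (-0.02 ± 0.07, adjusted p = 0.925). Prdx4, the enzyme of the endoplasmic reticulum, was at 72.8 ± 11.5 against 75.3 ± 7.31 CPM (n = 3 each). Prdx6, the 1-cysteine member that uses glutathione, was at 197, 215 and 144 against 190, 171 and 179 CPM, with wild-type replicate 3 lowest of the 6. Its log2 fold change was -0.04 ± 0.14 with all libraries (adjusted p = 0.885) and -0.18 ± 0.07 without that library (adjusted p = 0.116). The sign for Prdx1, Prdx4 and Prdx6 changed in some leave-one-out fits, and that for Prdx1 also with upper-quartile scaling. How the strand was treated in counting is not given, which bears on Prdx2 and Prdx5. Of the 50-base words of Prdx2 transcripts, 3.40% run antisense to Rnaseh2a, a neighbouring gene with 4514, 4703 and 3357 counts in wild-type and 1982, 1840 and 1826 in heterozygous libraries (-1.18 ± 0.13, adjusted p = 0.00167), and 4.11% to Junb (0.03 ± 0.17, adjusted p = 0.938). Of the words of Prdx5, 15.5% run antisense to Trmt112 (-0.07 ± 0.07, adjusted p = 0.597). No word of Prdx3 was shared with another gene.

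**Figure D3:**
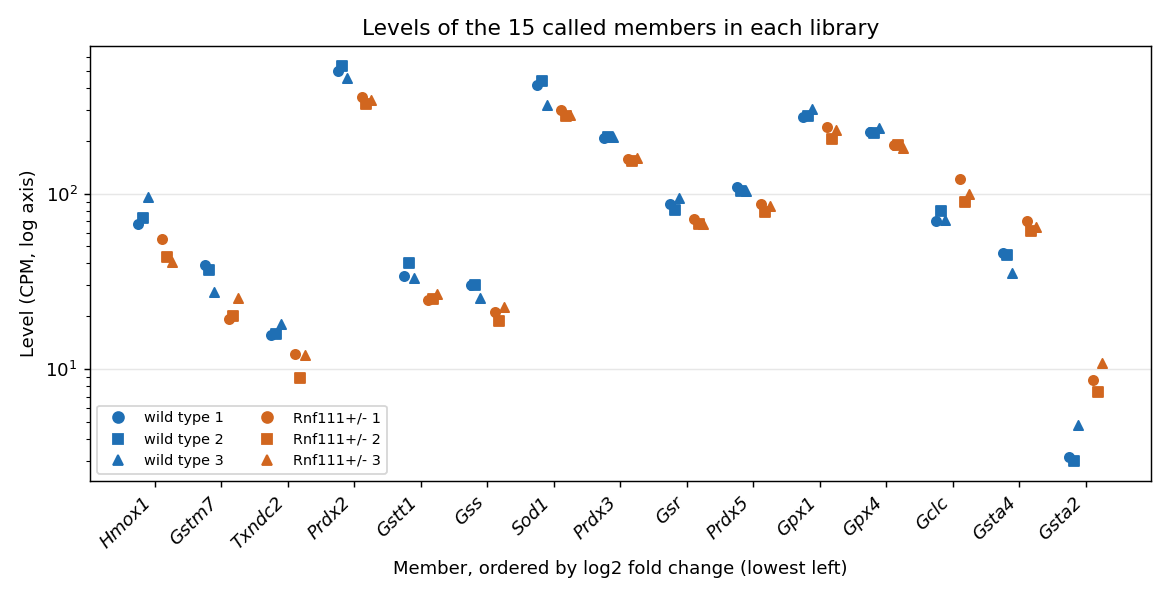
Level of each of the 15 called members in every library (y axis, CPM, log axis), ordered by log2 fold change, with wild-type libraries in blue and heterozygous libraries in orange, and marker shape for the replicate number. No member's groups overlap. The Prdx3 points lie closest together within each genotype (207 to 211 against 153 to 159 CPM).

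Among glutathione peroxidases, Gpx1 and Gpx4 fell and Gpx3, Gpx7 and Gpx8 did not pass. Gpx1, the main selenium-dependent enzyme of cytosol and mitochondria, was at 273, 276 and 303 CPM in wild-type and at 239, 205 and 229 CPM in heterozygous libraries. The groups did not overlap, and Gpx1 fell to 79.1% (-0.34 ± 0.08, adjusted p = 0.0339). Gpx4, the selenoenzyme that reduces lipid peroxides in membranes and guards against ferroptosis, was at 223, 222 and 236 against 190, 188 and 181 CPM. It fell to 82.1% (-0.28 ± 0.06, adjusted p = 0.0267). Among the leave-one-out fits, both calls held only without wild-type replicate 3, with adjusted p up to 0.152 for Gpx1 and 0.12 for Gpx4. That of Gpx1 did not hold with upper-quartile scaling either (adjusted p = 0.0511). Of Gpx4 words, 34.7% occur in its pseudogene Gpx4-ps2, so its reads may have been divided or left out.

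Gpx3 was at 707, 1027 and 1008 against 1246, 874 and 1520 CPM, a wide spread within each genotype. The groups overlapped (0.41 ± 0.23, adjusted p = 0.331). Gpx7 and Gpx8, which act in the endoplasmic reticulum, were at 66.9 ± 6.70 against 71.9 ± 13.7 CPM and at 51.7 ± 10.7 against 44.7 ± 4.76 CPM (n = 3 each). Both overlapped between the genotypes, and the log2 fold change of Gpx8 was -0.21 with all libraries and -0.02 without wild-type replicate 3.

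In the thioredoxin system no thioredoxin or reductase gene passed, while 9.64% of all tested genes were called. Txn1, the cytosolic thioredoxin, was at 193, 170 and 221 against 163, 156 and 164 CPM. The groups did not overlap, and the wild-type libraries spread widely (-0.28 ± 0.10, adjusted p = 0.112). Txn2, its mitochondrial counterpart and the electron donor of PRDX3, was at 101 ± 8.16 against 90.3 ± 6.08 CPM (n = 3 each), with overlap (-0.16 ± 0.08, adjusted p = 0.268). Txnrd1, the cytosolic reductase, was at 174, 186 and 149 against 174, 170 and 164 CPM, and its groups overlapped fully (adjusted p = 0.995). The mitochondrial Txnrd2 was at 20.3 ± 2.07 against 22.7 ± 1.47 CPM (0.16 ± 0.11, adjusted p = 0.425), and Txnrd3 was at 19.9 ± 4.25 against 19.5 ± 2.78 CPM (n = 3 each). Txnip was at 1237, 1039 and 887 against 998, 1190 and 1094 CPM (0.05 ± 0.12, adjusted p = 0.833). Of its words, 15.7% run antisense to Gm15441. The thioredoxin-like genes ranged from -0.18 (Txnl4b) to 0.06 (Txnl1).

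Of 8 genes for proteins with a thioredoxin domain, 1 fell (12.5%, against 5.74% of all tested genes fallen and 9.64% called). Txndc2, whose protein is known from sperm, was at 15.6, 15.9 and 18.2 CPM in wild-type and at 12.2, 8.89 and 12.0 CPM in heterozygous libraries (-0.59 ± 0.16, adjusted p = 0.0496). The groups did not overlap, but this adjusted p was the nearest to the threshold of all called members. The call held in none of the 6 leave-one-out fits (adjusted p up to 0.162), nor with DESeq2's size factors (0.0536), a stricter filter on low counts (0.0538) or upper-quartile scaling (0.0618). The other 7 lay between -0.20 (Txndc17) and 0.10 (Txndc16), and none of them passed.

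Of 4 genes that build and recycle glutathione, 1 rose and 2 fell (75.0% called, against 9.64% of all tested genes). Gclc, the catalytic subunit of glutamate-cysteine ligase and the rate-limiting enzyme of glutathione synthesis, was at 70.2, 79.5 and 70.5 CPM in wild-type and at 121, 89.1 and 99.2 CPM in heterozygous libraries. Every heterozygous library lay above every wild-type library, with replicate 1 the highest. Gclc rose 1.40-fold (0.49 ± 0.11, adjusted p = 0.0323). Gclm, the modifier subunit of the same ligase, was at 32.1, 34.5 and 35.7 against 37.4, 33.2 and 36.9 CPM, with overlap (0.07 ± 0.09, adjusted p = 0.674). Gss, which adds glycine in the final step of synthesis, was at 30.1, 30.0 and 25.5 against 21.1, 18.8 and 22.7 CPM. It fell to 73.1% (-0.45 ± 0.11, adjusted p = 0.0408). Gsr, the reductase that restores oxidised glutathione, was at 87.0, 80.6 and 94.0 against 71.4, 67.3 and 66.8 CPM and fell to 78.6% (-0.35 ± 0.08, adjusted p = 0.0276). So RNA of the first enzyme's catalytic subunit rose, and that of its modifier subunit did not pass. RNA of the second enzyme and of the reductase fell.

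The rise of Gclc did not hold in 4 of the 6 leave-one-out fits (adjusted p up to 0.0969) or under the replicate block (0.0576). The falls of Gss and Gsr did not hold in 5 and 4 of the 6 (up to 0.167 and 0.124), nor that of Gss under the block (0.0693) or upper-quartile scaling (0.0511). Gss overlaps Acss2 and the antisense RNA Gssos2 on the other strand, by 4.15% and 4.02% of its words. Their log2 fold changes were -0.44 ± 0.17 (adjusted p = 0.156) and -1.26 ± 0.42 (adjusted p = 0.0967).

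The non-microsomal GSTs, 18 genes in 7 classes, had 2 rises and 2 falls, while 3.9% of all tested genes rose and 5.74% fell. In the alpha class, Gsta4, which clears the lipid peroxidation product 4-hydroxynonenal, was at 46.1, 44.9 and 35.2 CPM in wild-type and at 69.8, 61.1 and 64.8 CPM in heterozygous libraries. The lowest heterozygous library was well above the highest wild-type one, and Gsta4 rose 1.55-fold (0.63 ± 0.11, adjusted p = 0.0125). Gsta2 was at 3.16, 3.01 and 4.80 against 8.74, 7.38 and 10.8 CPM. It rose 2.45-fold (1.30 ± 0.24, adjusted p = 0.0144). Gsta3, an alpha transferase that can also isomerise steroid precursors, went the other way without passing, at 10.2, 13.6 and 11.7 against 9.86, 5.34 and 7.86 CPM (-0.62 ± 0.23, adjusted p = 0.132). The rise of Gsta4 did not hold without heterozygous replicate 1 or 3 (adjusted p of 0.0521 and 0.0546). That of Gsta2 did not hold in 4 of the 6 leave-one-out fits, with adjusted p from 0.0501 to 0.0688. Gsta2 shares 49.8% of its words with other genes, chiefly the near-copies Gsta1, Gm10639 and Gm3776. These had at most 5 counts in any library, so how reads were divided between them is uncertain.

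In the mu class, Gstm7 fell and the other 5 did not pass (16.7% called, against 9.64% of all tested genes). Gstm7 was at 39.1, 36.8 and 27.5 CPM in wild-type and at 19.2, 20.2 and 25.6 CPM in heterozygous libraries, with replicate 3 of each genotype nearest to the other genotype. It fell to 62.8% (-0.67 ± 0.16, adjusted p = 0.0355), a call that did not hold in 4 of the 6 leave-one-out fits (up to 0.141) or under the replicate block (0.0856). Gstm6 was at 7.59, 8.22 and 7.87 against 13.4, 10.2 and 10.3 CPM, without overlap (0.52 ± 0.16, adjusted p = 0.0777), and it passed with DESeq2 (adjusted p = 0.0241). Gstm1 was at 431, 447 and 493 against 425, 342 and 439 CPM, with overlap (-0.18 ± 0.10, adjusted p = 0.319). Of Gstm1 words, 18.9% occur in other genes, most in Gstm2-ps1.

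In the theta class, Gstt1 was at 34.0, 40.5 and 33.1 against 24.9, 25.1 and 26.7 CPM and fell to 71.2% (-0.49 ± 0.10, adjusted p = 0.0226). The heterozygous values were tight and lay below all wild-type ones. Among the leave-one-out fits, its call held only without wild-type replicate 3 (up to 0.0983 in the others). Gstt2 and Gstt3 had log2 fold changes of -0.39 ± 0.16 and -0.57 ± 0.18 and did not pass (adjusted p = 0.178 and 0.0868), and Gstt3 passed with DESeq2 (0.0339). The pi-class Gstp1 was at 72.4, 78.5 and 99.7 against 67.2, 64.1 and 68.0 CPM (-0.33 ± 0.11, adjusted p = 0.113). Its copy Gstp2, which holds 33.7% of Gstp1's words, was at 1.52 ± 0.237 against 0.973 ± 0.312 CPM (n = 3 each). Gsto1 and Gsto2 of the omega class were at -0.40 ± 0.16 and -0.67 ± 0.45, Gstk1 of mitochondria and peroxisomes at -0.31 ± 0.19, and Gstz1 at 0.06 ± 0.12, with adjusted p from 0.162 to 0.807.

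A few members turned on wild-type replicate 3, and those shown with it were chosen after their values were seen. Mgst2, a microsomal transferase that can also make leukotriene C4, was at 38.9 and 46.4 CPM in wild-type replicates 1 and 2 and at 12.8 CPM in replicate 3. The heterozygous libraries, at 14.4, 12.0 and 11.2 CPM, were at the level of replicate 3. With all libraries Mgst2 did not pass (-1.38 ± 0.46, adjusted p = 0.13), and without replicate 3 it did (-1.75 ± 0.13, adjusted p = 9.39e-06). Gsto1 had the same shape, at 85.3, 74.5 and 53.1 against 52.7, 52.1 and 56.2 CPM, and passed without replicate 3 (-0.56 ± 0.08, adjusted p = 0.00093). Gstm2 was at 245, 234 and 322 against 343, 300 and 386 CPM, and passed as higher without it (0.52 ± 0.10, adjusted p = 0.00491). Gstm2 also passed under the replicate block (adjusted p = 0.0254). All 3 gains came with the removal of 1 of 3 control mice, when 16.2% of all tested genes were called.

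Srxn1, the sulfiredoxin that repairs overoxidised peroxiredoxins, was highest in wild-type replicate 3: it was at 36.6, 41.8 and 70.7 CPM against 33.0, 33.9 and 34.4 CPM (-0.56 ± 0.24, adjusted p = 0.203). Without that library the difference was -0.21 ± 0.09 (adjusted p = 0.158). Mgst1, a microsomal transferase with peroxidase activity, was at 318, 303 and 504 against 277, 293 and 363 CPM. Its log2 fold change was -0.27 ± 0.21 with replicate 3 and 0.01 without it, and neither passed. Mgst3 was at 29.6 ± 2.63 against 29.0 ± 1.05 CPM (n = 3 each). Over all 60 members, replicate 3 was at least 0.5 log2 above the mean of the other wild-type libraries for 4 (Srxn1, Mgst1, Gsto2 and Gsta2) and as far below for 4 (Mgst2, Gsto1, Prdx6 and Txnrd3). The part of the oviduct markers of that library in these values was not tested.

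**Figure D4:**
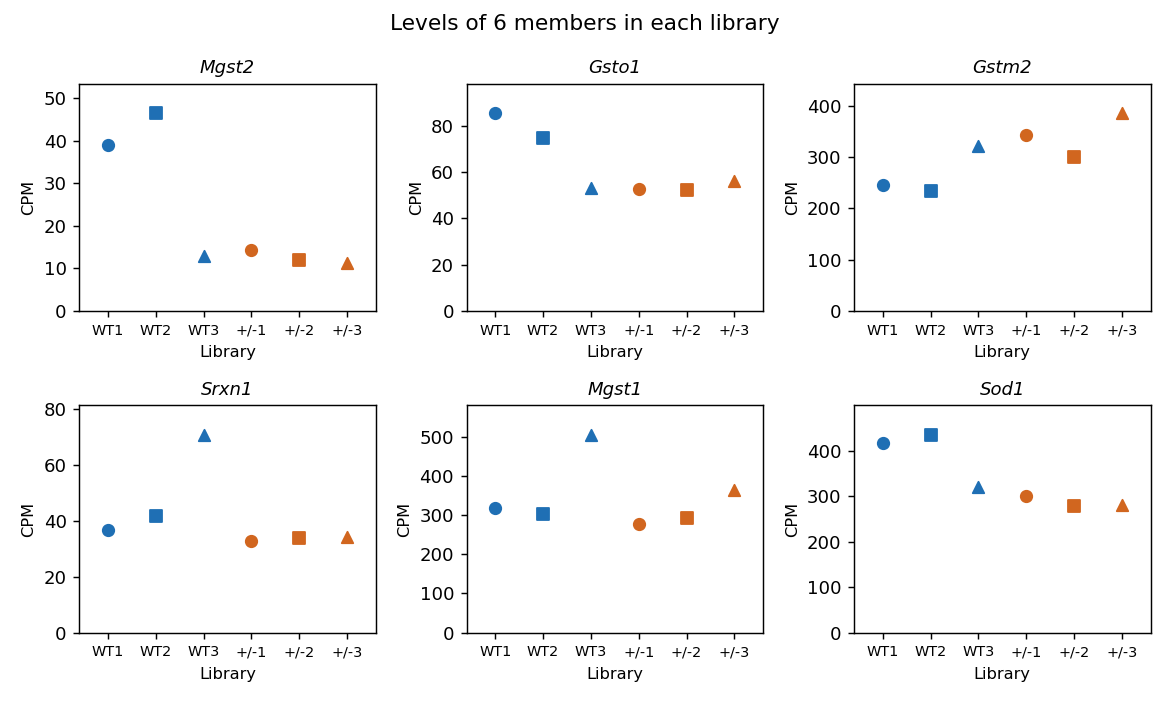
Level in each library (y axis, CPM from 0; x axis, the 3 wild-type libraries in blue and the 3 heterozygous libraries in orange) of 6 members. Wild-type replicate 3 sits with the heterozygous libraries for Mgst2 and Gsto1, and above all others for Srxn1 and Mgst1 (70.7 and 504 CPM).

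Hmox1, Nqo1 and Srxn1 are known to be induced by oxidants. Of these, Hmox1 fell and the other 2 did not pass (33.3% called, against 9.64% of all tested genes). Hmox1, heme oxygenase, which degrades heme and is abundant in macrophages, was at 66.8, 72.6 and 96.2 CPM in wild-type and at 55.0, 43.7 and 40.6 CPM in heterozygous libraries. The groups did not overlap, and Hmox1 fell to 59.1% (-0.76 ± 0.16, adjusted p = 0.03). Without wild-type replicate 3, its highest library, the difference was -0.58 ± 0.12. The call did not hold in 3 of the 6 leave-one-out fits (adjusted p up to 0.128) or under the replicate block (0.0731). Nqo1, a quinone reductase and standard NRF2 target, was at 8.40, 6.97 and 7.99 against 6.95, 4.16 and 5.88 CPM. The lowest wild-type and highest heterozygous values nearly touched (-0.46 ± 0.21, adjusted p = 0.221).

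Redox genes outside the rule were taken from 4 lists, of which 105 genes were tested. Of these, 5 rose and 10 fell (14.3% called, against 9.64% of all tested genes, 3.9% risen and 5.74% fallen), and without wild-type replicate 3 these counts were 10 and 16 (24.8% against 16.2%). Their median log2 fold change was -0.06, against -0.01 over all genes. Of 19 regulators of NRF2 and redox sensing, 2 rose and none fell, a share called of 10.5%, near that of all tested genes. Nfe2l1, a relative of NRF2 that controls proteasome genes, was at 509, 551 and 527 against 640, 635 and 707 CPM (0.32 ± 0.07, adjusted p = 0.0298). Mafk, a small MAF protein that pairs with NRF2 or with its competitor BACH1, was at 46.3, 49.1 and 41.9 against 59.0, 55.6 and 60.7 CPM (0.35 ± 0.08, adjusted p = 0.0347). Both sets of heterozygous values lay wholly above the wild-type ones. Nfe2l2 itself was at 172 ± 12.7 against 158 ± 5.69 CPM (-0.12 ± 0.07, adjusted p = 0.35), its inhibitor Keap1 at 91.6 ± 1.81 against 85.4 ± 0.120 CPM (-0.10 ± 0.06, adjusted p = 0.345), and Bach1 at 58.5 ± 2.18 against 51.8 ± 4.81 CPM (-0.17 ± 0.09, adjusted p = 0.251; n = 3 each). Without wild-type replicate 3, 4 of the 19 rose, among them Foxo1, a transcription factor of stress and granulosa cells named here after its values were seen. Foxo1 was at 479, 464 and 232 against 768, 990 and 878 CPM, without overlap and with wild-type replicate 3 lowest (1.17 ± 0.28 with all libraries, adjusted p = 0.0573). It was at 0.91 without that library (adjusted p = 0.000255), and with all libraries it passed with DESeq2 (adjusted p = 5.52e-06), limma-voom (0.0252) and the stricter filter (0.0422). These are RNA levels, and NRF2 is controlled mainly through its breakdown.

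Of 31 other genes of glutathione metabolism, 1 rose and 3 fell (12.9% called, against 9.64% of all tested genes). Ggct, which breaks down gamma-glutamyl dipeptides released from glutathione, was at 9.26, 9.59 and 10.9 against 19.8, 16.4 and 18.6 CPM. It rose 1.84-fold without overlap (0.88 ± 0.13, adjusted p = 0.00598), and the call held in every alternative fit. Ggt5, a cell-surface enzyme that cleaves glutathione and leukotriene C4, was at 30.8, 34.9 and 20.4 against 13.5, 12.0 and 12.5 CPM and fell to 44.2% (-1.18 ± 0.19, adjusted p = 0.00872). Glrx, the cytosolic glutaredoxin, fell to 68.5% (-0.54 ± 0.12, adjusted p = 0.0258), and Esd, which hydrolyses S-formylglutathione, to 73.9% (-0.44 ± 0.09, adjusted p = 0.0199). The call of Ggt5 did not hold without heterozygous replicate 2 or 3, that of Esd without any 1 heterozygous library, and that of Glrx in 4 of the 6 leave-one-out fits.

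Of 37 genes of other peroxide, quinone and selenium defence, 1 rose and 5 fell (16.2% called, against 9.64% of all tested genes). Ccs, the chaperone that loads copper into SOD1, was at 52.1, 54.1 and 52.7 against 40.4, 38.2 and 36.4 CPM. It fell to 72.4% (-0.47 ± 0.08, adjusted p = 0.0087), close to the 73.4% of Sod1 itself. Aifm2, which guards membranes against ferroptosis independently of GPX4, was at 62.6, 75.3 and 68.6 against 45.8, 39.8 and 44.1 CPM (-0.67 ± 0.09, adjusted p = 0.00463). The selenoprotein gene Selenow was at 129, 132 and 144 against 97.8, 94.1 and 97.2 CPM (-0.49 ± 0.07, adjusted p = 0.00473). Ugt1a6a, a glucuronosyltransferase, was at 13.2, 8.45 and 7.97 against 1.67, 0.485 and 0.888 CPM (-3.28 ± 0.43, adjusted p = 0.00473), but it shares its last exons with other Ugt1a genes, so its counts are uncertain. All 4 had groups that did not overlap. Outside the naming rule, Nqo2 fell (-0.48 ± 0.11) and Aldh3a2 rose (0.27 ± 0.06). The calls of Aifm2, Selenow and Ugt1a6a held in every alternative fit, and that of Ccs did not hold without heterozygous replicate 2 or 3 (adjusted p up to 0.0531). Those of Nqo2 and Aldh3a2 did not hold in 4 and 5 of the 6 leave-one-out fits.

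Of 18 sources of reactive oxygen species, 1 rose and 2 fell (16.7% called, against 9.64% of all tested genes). Maoa, a mitochondrial monoamine oxidase that releases peroxide, was at 113, 104 and 98.7 against 56.2, 51.6 and 54.4 CPM. It fell to 51.4% (-0.96 ± 0.08, adjusted p = 0.000369) and held in every alternative fit. Xdh, xanthine dehydrogenase, was at 41.0, 36.5 and 70.8 against 20.7, 20.6 and 26.9 CPM (-1.12 ± 0.27, adjusted p = 0.0479), with wild-type replicate 3 far above the rest. This call did not hold in 4 of the 6 leave-one-out fits, with either other scaling or with no low-count filter (adjusted p up to 0.172). Ero1b, an oxidase of the endoplasmic reticulum, rose (0.44 ± 0.11, adjusted p = 0.0359), but not in 4 of those fits or under the replicate block. The calls of Nfe2l1 and Mafk did not hold in 5 and 4 of the 6 fits, nor that of Mafk under the block.

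**Figure D5:**
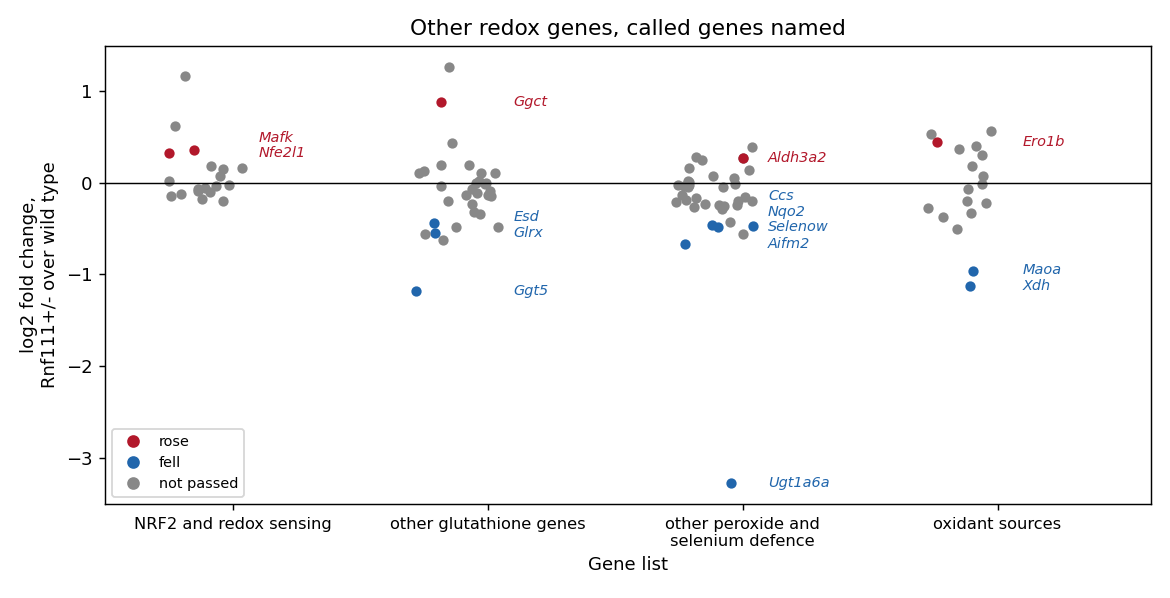
Log2 fold change (y axis, heterozygous over wild type) of each of the 105 tested redox genes outside the rule, by list (x axis), with called genes named and coloured. Most of the 15 called genes lie within 1.2 of 0, and Ugt1a6a is lowest at -3.28.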

How the data were processed

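Whole-ovary RNA of 3 wild-type and 3 Rnf111+/- mice was measured. The authors deposited 1 table of raw read counts per gene symbol. The submitters' processing notes name fastp (0.20.1), HISAT2 (2.1.0), HTSeq (0.11.2), DESeq2 (1.38.3) and build GRCm39; no role, annotation or strand setting was found in those sources. Totals were 38261449 to 39474515 counts, with 0 columns lacking a sample. Floors cover counting error only.

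Counts were fitted with edgeR (4.0.16, R 4.3.3): the filterByExpr filter (count 10, total 15), TMM scaling, a robust quasi-likelihood fit with genotype as its only term, and Benjamini-Hochberg adjustment over 16841 genes, called under 0.05. The test gives no standard error, so the absolute log2 fold change was divided by the square root of F. The script was tested on simulated data. Libraries were not duplicates (chi-square per degree of freedom at least 12.6). P-values measure the spread between these mice. Alternatives were DESeq2 (1.42.0), limma-voom (limma 3.58.1), 2 other scalings, 2 other filters, the replicate block and leaving out each library.

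The members, gene lists and tests were chosen with earlier results of these data known. Named were all called members, 29 core members and Rnf111 whatever their result, members of extreme fold change in their family or of at least 1 on the log2 scale, and up to 4 called genes of smallest p from each other list. Bach1, Keap1, Nfe2l2, Foxo1 and Gstm2 were added after their values were seen. Gpx7, Gpx8, Txndc17 and Txnl4b, which the naming rule did not take, were also named. Exon lengths and the 50-base words shared between transcripts came from GENCODE M21 (GRCm38).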

Additional observations from a re-analysis of the deposited data

How the results depend on the processing

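Leaving out 1 library changed the counts most. Called members, 15 with all libraries, ranged from 3 to 17, members that rose (3) from 0 to 4, and members that fell (12) from 2 to 13. All genes called (1623) ranged from 530 to 2795, and called genes of the other redox lists (15) from 5 to 26. Of the 6 libraries, leaving out wild-type replicate 3 alone raised these counts; the other 5 fits gave fewer calls with 1 mouse less, and 530 was the count without heterozygous replicate 2. DESeq2 called 2543 genes in all and 17 members, 15 of them shared. The other scalings, filters and limma-voom gave 11 to 15 called members. With the replicate block there were 12, of which 11 were shared. The labels name no shared litter or day, so the main fit did not pair the mice by number. Same-numbered libraries deviated together at correlations of 0.0120, 0.00568 and 0.100, and differently numbered ones at -0.0713 to 0.0593. With 3 libraries a genotype, these values cannot settle whether the numbers pair mice.

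Among the members recomputed under every alternative, directions changed for 10 that did not pass, to values of at most 0.107 in size and with no adjusted p under 0.676. Txnrd1, at -0.0012, was at 0.00756 (DESeq2's size factors), 0.0078 (DESeq2), 0.0048 (limma-voom), 0.00357 (no filter), 0.00453 (replicate block), 0.0137 (stricter filter) and 0.0309 (upper-quartile scaling). With upper-quartile scaling Mgst3 was at 0.00512, Prdx1 at 0.0153 and Txnrd3 at 0.00267. With 1 library left out, the ranges were -0.0768 to 0.0807 (Txnrd1), -0.0864 to 0.035 (Mgst3), -0.185 to 0.0872 (Prdx6), -0.182 to 0.107 (Txnrd3), -0.0664 to 0.0375 (Prdx1), -0.062 to 0.158 (Prdx4), -0.0462 to 0.194 (Txnip), -0.0499 to 0.178 (Gstz1), -0.045 to 0.221 (Gpx7) and -0.396 to 0.0105 (Mgst1). Counts of 17 to 42 a library limit Gsto2.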
